A study of Copadichromis virginalis x Mchenga conophoros with 6 samples.

Results

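Transcription factors of the families that pattern and maintain the vertebrate brain were followed in whole brains of male F1 hybrids between the Lake Malawi cichlids Copadichromis virginalis, a pit digger, and Mchenga conophoros, a castle builder. Family prefixes were sox, fox, pax, lhx, nkx, dlx, meis, pou, zic, tcf and neurod. Also used were mef2, klf, e2f, irf, hox, otx, bcl11, zeb, rfx and the prefix of six3. The prefixes pbx, nr and stat had to be followed by a digit, and nfi by a, b, c or x. A gene was taken when its symbol began with one of these and it was listed in both pit digging and both isolated libraries. This gave 59 genes of the 8304 listed in those 4 libraries, and 45 of the 59 were also listed in both castle building libraries. By symbol, 54 of them fell into 19 families, tcf20 and tcf25 by symbol alone. The other 5, foxred1, foxred2, irf2bpl, paxbp1 and paxip1, share a prefix with a family but are not members of it. Counts of factors below include all of these genes. A further 43 genes had a matching symbol: 6 were left out by name and 37 were not listed in all 4 libraries.

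Every library came from a hybrid male carrying 1 allele of each species at each locus. The labels distinguish the groups by the behavioural setting the males went through: 2 libraries of males that dug pits, 2 of males that built castles and 2 of males kept isolated, called pit digging, castle building and isolation here. RNA was extracted from the whole brain with Trizol and sequenced on Illumina libraries, and reads over sites that differ between the species were counted per gene on each allele. The labels give neither age, brood nor cross direction and do not say that replicates were separate animals, so each p-value here reads no more than the scatter of these libraries, which may be technical.

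Transcription factors bind DNA at short motifs and turn the genes near them up or down, alone or with partner proteins. In the brain, homeodomain, forkhead and SOX factors lay out regions and progenitor pools, bHLH and TCF factors commit cells to neuronal lineages or relay Wnt signals, and NFI, MEF2 and ZIC factors act during the maturation of neurons and glia. In an F1 hybrid both alleles of a gene share the same nuclei, so that the state and number of the cells reach both of them. How well reads of either allele map also enters a counted ratio, and its part here was not tested. Roles named below are known from mammals or other vertebrates and not from these cichlids.

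The libraries held between 2155680 and 3294397 allele counts. A library listed a gene only when each allele had at least 6 counts, so the counts of a gene that is not listed are unknown. The castle building libraries differed from each other by less than sampling noise (chi-square per degree of freedom 0.495, against 27.3 for pit digging and 20.4 for isolation), and 7 of the transcription factors had identical counts in both. They were therefore counted as 1 sample, their mean. That sample also stood apart: its log2 counts correlated with the other libraries at 0.650 to 0.693, while the pit digging and isolated libraries correlated with each other at 0.834 to 0.888. Of the cell type markers, 8 of 14 neuronal genes were listed in every library and summed to between 3389 and 4400 CPM (counts scaled to a common library size) in the 6 libraries. Of 9 oligodendrocyte and myelin genes, mbp and mpz were listed in every library; those 2 summed to between 4816 and 5696 CPM in the pit digging and isolated libraries and to 829 and 831 CPM in castle building. Of 7 microglial and leukocyte genes, csf1r and cd74 were, at sums of 134 to 222 CPM against 79.4 and 80.0. The 4 of 8 astroglial genes listed in every library summed to 2171 to 4206 CPM against 4977 and 4987. In bulk RNA, fewer cells of a type and less RNA per cell cannot be told apart.

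The first question was whether the 2 parental alleles of a transcription factor contributed equally in the hybrid brain. The share of counts on the C. virginalis allele, averaged over the 4 pit digging and isolated libraries, had a median of 51.0% over the 59 genes, with quartiles of 48.4% and 54.2%. Over all 8304 genes the median was 51.0% too, with quartiles of 48.6% and 53.8%. Because listing required at least 6 counts on each allele, strongly one-sided shares at low counts could not enter the figures of this paragraph. This holds for the factors and for all genes. The standard deviation of a factor's share over the 4 libraries had a median of 5.36 percentage points, and 5.24 was what counting error alone gives at these counts. Of the 59 genes, 6 had a standard deviation more than 2 times that of counting (meis2, nfix, paxbp1, rfx4, rfx5 and tcf12), which is 10.2%, and the figure over all genes was 10.0%. The share lay above 50% in all 4 libraries for 11 factors (e2f4, meis2, nfia, nfix, nr1h3, pbx3, pou3f4, rfx5, tcf4, tcf7l2 and zic2), or 18.6%, with 18.8% of all genes doing so. It lay below 50% in all 4 for foxred2, mef2a, nr2c1, paxip1 and sox5, or 8.47%, with 6.48% of all genes.

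**Figure D1:**
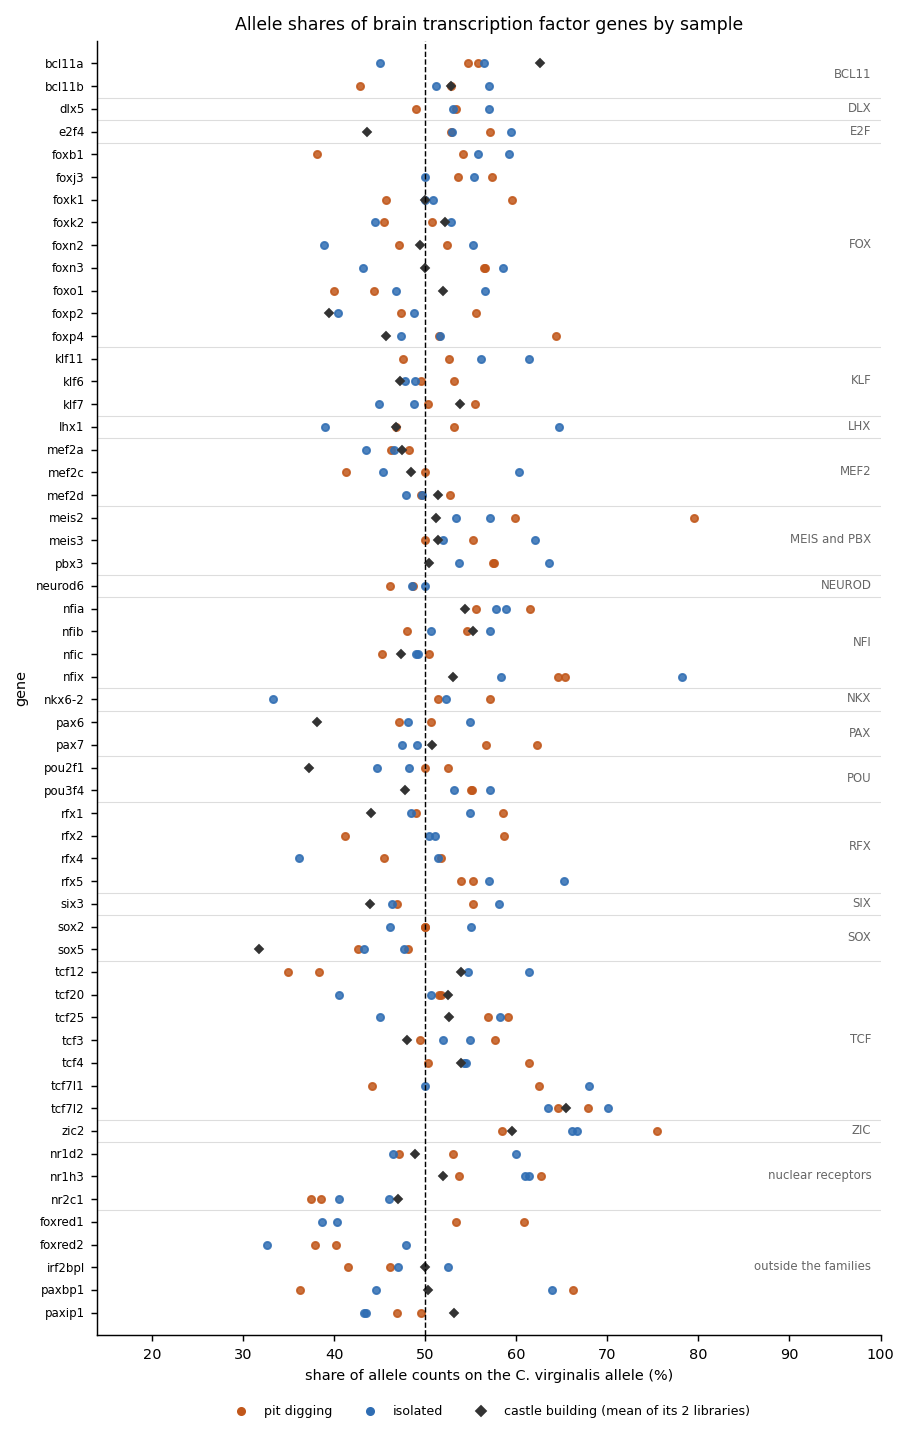
Share of allele counts on the C. virginalis allele, in percent (x axis), for 56 of the 59 genes (y axis, ordered by family), in the pit digging libraries, the isolated libraries and the castle building sample; the vertical line marks 50%. The tcf7l2 points sit between 63.5% and 70.1%, and most other genes scatter around the line.

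In the test of the allelic ratio over the 4 libraries (edgeR quasi-likelihood test, Benjamini-Hochberg adjusted over 8254 genes), 6 of 58 tested factors passed, all with the C. virginalis allele higher: tcf7l2, nfix, zic2, nfia, pbx3 and rfx5. That is 10.3% of the factors; 9.72% of all genes passed, 9.05% with the C. virginalis allele higher and 0.666% with it lower. At an unadjusted p under 0.05 there were 11 factors, or 19.0%, against 20.3% of all genes. The median log2 ratio of C. virginalis to M. conophoros was 0.04 over the factors and 0.05 over all genes, and 32 factors had a positive and 26 a negative value. With the allele columns scaled to each other (TMM), which moved the median of all genes by -0.09, both medians turned negative, to -0.05 for the factors and -0.03 for all genes, and 5 factors passed, 4 higher and 1 lower (nr2c1). Over all genes that split was 590 higher and 120 lower, against 747 and 55 without the scaling. Fits that left out 1 of these libraries had 1 residual degree of freedom and called fewer genes. A call lost in them does not by itself tie a gene to that library.

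The name TCF covers unrelated genes, among them 2 groups: HMG-box factors that take β-catenin to Wnt target genes, and E-proteins, the bHLH partners of proneural factors. Among the HMG-box factors, tcf7l2, which is widely expressed in the thalamus and habenula of mammals, had the lowest p of the 58 factors tested. Its C. virginalis share was 67.9% and 64.5% in pit digging and 63.5% and 70.1% in isolation, on 737 to 1005 counts per library, and 65.4% in castle building. All samples lay well above 50% and the groups overlapped. The log2 ratio was 0.99 ± 0.09 (SE, n = 4), 1.99-fold, with an edgeR adjusted p of 0.000651, and it passed in all 11 alternative analyses. The related tcf7l1, a repressor-type Wnt factor, had 18 to 43 counts and shares of 44.2% and 62.5% in pit digging and 50% and 68.0% in isolation, a spread too wide to place. The E-protein tcf4, whose loss causes an intellectual disability syndrome in humans, had shares of 61.4%, 50.3%, 54.5% and 54.3% and a log2 ratio of 0.29 ± 0.12 (SE, n = 4) that did not pass (edgeR adjusted p = 0.222). The other TCF genes, tcf3 and tcf12 (E-proteins), tcf20 (a chromatin-associated coregulator) and tcf25 (a ribosome quality control factor), did not pass either.

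NFI factors bind a palindromic motif and act in glial and neuronal differentiation, and nfia and nfix passed of the 4 NFI genes. For nfix the C. virginalis share was 65.3% and 64.6% in pit digging, 78.2% and 58.3% in isolation and 53.1% in castle building, on 771 to 2853 counts. The 2 isolated libraries bracketed the pit digging ones, so the groups overlapped. Its log2 ratio was 1.01 ± 0.18 (SE, n = 4; edgeR adjusted p = 0.0131). The value moved from 0.69 to 1.37 when isolated replicate 1 or 2 was left out, and the call was lost without pit digging replicate 1 or 2. For nfia the shares were 61.5% and 55.6% in pit digging, 57.7% and 58.9% in isolation and 54.4% in castle building. All samples leaned the same way and the isolated pair lay inside the pit digging range. The log2 ratio was 0.49 ± 0.08 (SE, n = 4, edgeR adjusted p = 0.00969), and the call was lost with DESeq2 (adjusted p = 0.110). It was also lost without pit digging replicate 1, isolated replicate 1 or isolated replicate 2. The remaining pair, nfib and nfic, had mean shares of 52.6% and 48.5% over the 4 libraries and did not pass.

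The zinc-finger factors of the ZIC family act in the dorsal neural tube and cerebellum. Here zic2 had shares of 58.4% and 75.5% in pit digging, 66.1% and 66.7% in isolation and 59.5% in castle building (exact 95% interval 52.5% to 66.3%). Pit digging spanned both sides of the isolated values. Its log2 ratio was 0.96 ± 0.18 (SE, n = 4; edgeR adjusted p = 0.0165), on 111 to 279 counts per library. Without isolated replicate 1 or 2 the call was lost, at log2 ratios of 0.97 and 0.95.

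MEIS and PBX proteins are TALE homeodomain factors that bind DNA together with each other and with HOX proteins. Here pbx3 passed, with shares of 57.4% and 57.6% in pit digging, 53.8% and 63.6% in isolation and 50.4% in castle building. The pit digging pair was close together and inside the isolated range, and castle building was nearly balanced. The log2 ratio was 0.48 ± 0.12 (SE, n = 4, edgeR adjusted p = 0.0398). Leaving out pit digging replicate 1, pit digging replicate 2 or isolated replicate 2 lost the call. The call was also lost with DESeq2 (adjusted p = 0.361), with the allele columns scaled to each other (edgeR adjusted p = 0.0890) and with castle building in the mean, an alternative chosen after seeing the data (edgeR adjusted p = 0.203), so that it passed in 4 of 11 alternatives. For meis2, a partner of PBX in the striatum and olfactory bulb, shares were 59.9% and 79.6% in pit digging and 57.1% and 53.3% in isolation, at 51.2% in castle building. The 79.6% of pit digging replicate 2 stood apart from the others. The log2 ratio of 0.67 ± 0.18 (SE, n = 4) did not pass (edgeR adjusted p = 0.0680), and it was among the calls when pit digging replicate 1 was left out. For rfx5, a winged-helix factor of MHC class II promoters in mammals, shares were 55.3% and 54.0% in pit digging and 65.3% and 57.0% in isolation. Pit digging lay below isolation without overlap, as it did for 15.5% of all genes. That difference did not pass (-0.34 ± 0.20 on the log2 scale, edgeR adjusted p = 0.969). For the 4 libraries together the log2 ratio was 0.44 ± 0.10 (SE, n = 4, edgeR adjusted p = 0.0355), and no analysis that left out a library kept the call. DESeq2 (adjusted p = 0.319) and scaling of the allele columns (edgeR adjusted p = 0.0855) lost it too, and it passed in 2 of 9 alternatives.

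None of the 3 nuclear receptors, ligand-regulated or orphan zinc-finger factors, passed. For nr2c1, an orphan receptor, the C. virginalis shares were 38.5% and 37.5% in pit digging, 40.5% and 46.1% in isolation and 47.1% in castle building. All samples lay below 50%. The log2 ratio was -0.54 ± 0.14 (SE, n = 4; edgeR adjusted p = 0.0575). For nr1h3, the LXR alpha oxysterol receptor, the shares were 62.7% and 53.8%, 61.4% and 61.0%, and 51.9%, with a log2 ratio of 0.55 ± 0.16 (edgeR adjusted p = 0.0782). The clock repressor nr1d2 had shares of 46.4% to 60.0%. Outside the families, foxred2, an endoplasmic reticulum oxidoreductase, had shares of 40.2%, 37.9%, 32.6% and 47.9% and a log2 ratio of -0.56 ± 0.18 (edgeR adjusted p = 0.111). For paxbp1, which binds PAX3 and PAX7, the shares were 66.2% and 36.3% in pit digging and 44.6% and 64.0% in isolation, so that the replicates of each group stood on opposite sides of 50%; this gene is described for that spread and was chosen after its values were seen.

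No gene of the other families passed. The SoxD factor sox5, which acts in corticofugal neurons and glia, had shares of 48.1% and 42.7% in pit digging and 47.7% and 43.3% in isolation, with a log2 ratio of -0.25 ± 0.14 (SE, n = 4; edgeR adjusted p = 0.381). Of the 10 forkhead genes, foxo1, a target of insulin signalling, had a mean share of 46.9% and foxj3 one of 54.1%. The 3 MEF2 genes, MADS-box factors regulated by neuronal activity, had mean shares of 46.1% (mef2a), 49.2% (mef2c) and 49.9% (mef2d). The 3 KLF genes ran from 49.8% (klf6) to 54.4% (klf11), and both BCL11 genes, zinc-finger factors of cortical projection neurons, were at 53.0% (bcl11a) and 51.0% (bcl11b). The PAX and POU genes, the other RFX genes and the single-gene families (DLX, E2F, LHX, NEUROD, NKX and that of six3) had mean shares between 46.2% and 55.6%. The neural stem cell factor sox2 had 12 to 24 counts per library, below the minimum for testing, and shares of 50% in both pit digging libraries and 46.2% and 55.0% in isolation. Listing required at least 6 counts on each allele, so at 12 counts no share other than 50% could be listed. Its shares therefore do not show balance.

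**Figure D2:**
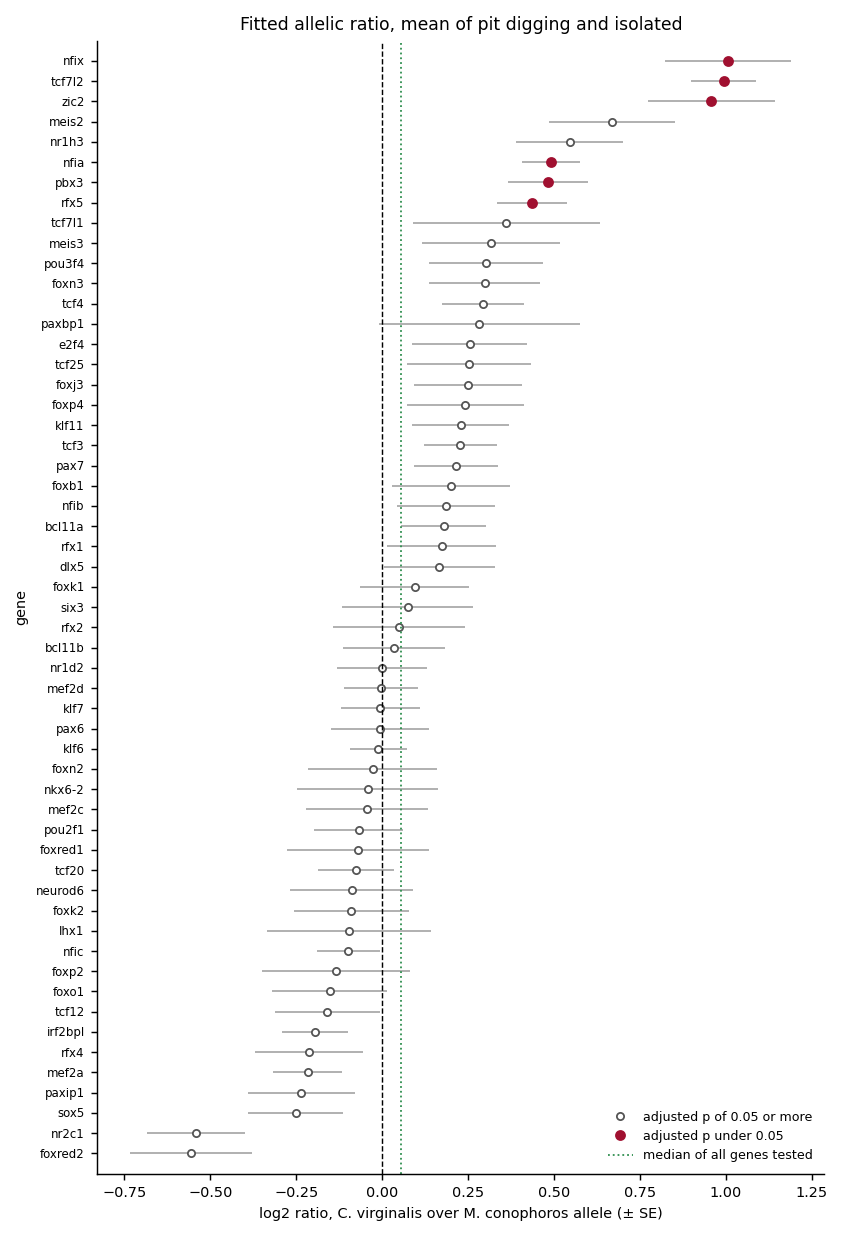
Log2 ratio of C. virginalis to M. conophoros counts over the pit digging and isolated libraries (x axis, ± SE) for 55 of the 58 tested genes (y axis, ordered by value); filled points mark an edgeR adjusted p under 0.05, and a dotted line gives the median of all genes tested. The 6 filled points lie between 0.44 and 1.01, all on the C. virginalis side.

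The second question was whether the allelic ratio of a factor differed between pit digging and isolation. No factor and no gene passed (edgeR; 0% of 8254 genes), and DESeq2 called 6 genes, no factor among them. At an unadjusted p under 0.05 there were 2 factors, tcf12 and pax7, or 3.45%, against 5.43% of all genes. The share was higher in pit digging without overlap for 9 of the 59 genes (15.3%, against 18.6% of all genes) and lower for 7 (11.9%, against 15.5%). The E-protein tcf12 had shares of 35.0% and 38.3% in pit digging, 61.4% and 54.7% in isolation and 54.0% in castle building, on 60 to 103 counts. Both pit digging libraries were below 50% and both isolated libraries above it. The difference was -1.30 ± 0.30 on the log2 scale (SE; edgeR adjusted p = 0.406), which ranked 61 among 8254 genes. For pax7, a marker of the tectum and of neural crest derivatives, the shares were 56.7% and 62.3% in pit digging and 49.1% and 47.4% in isolation, and the difference was 0.64 ± 0.24 (edgeR adjusted p = 0.867). For foxred1, a mitochondrial complex I assembly factor, they were 60.9% and 53.3% against 40.3% and 38.7% on 15 to 72 counts, and the difference was 1.05 ± 0.39 (edgeR adjusted p = 0.958). Those 3 genes did not overlap between the groups. The next by p were meis2, irf2bpl and klf11, a KLF repressor, with differences of 0.73 ± 0.37, -0.37 ± 0.19 and -0.50 ± 0.28, each at an edgeR adjusted p of 0.969. They did not overlap between the groups either, and all of these genes were picked by a small p.

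Castle building entered a fit of 5 samples over the 6844 tested genes listed in all 6 libraries, in which its single sample took its spread from the other groups. Its shares of the 45 listed factors were below all 4 other libraries for 17 factors, or 37.8%, against 26.7% of all genes, and above them for 5 (among them bcl11a, nr2c1, paxip1 and tcf20), or 11.1%, against 19.7%. The allelic ratio itself passed for none of 45 factors (1.71% of all genes passed, 1.59% with C. virginalis higher); DESeq2 called none either, and 4 factors, or 8.89%, had an unadjusted p under 0.05, against 9.66% of all genes. Of these 4, tcf7l2 had a C. virginalis share of 65.4% (exact 95% interval 59.5% to 71.1%, log2 ratio 0.92 ± 0.21, edgeR adjusted p = 0.128). The SoxD factor sox5 had a share of 31.8% (23.9% to 40.6%, on 129 counts), below the 42.7% to 48.1% of the other 4 libraries, with a log2 ratio of -1.10 ± 0.26 (edgeR adjusted p = 0.130). The other 2 were bcl11a at 62.6% (57.2% to 67.7%, log2 ratio 0.74 ± 0.23, edgeR adjusted p = 0.294) and the octamer factor pou2f1 at 37.3% (28.6% to 46.7%, -0.75 ± 0.25, edgeR adjusted p = 0.341). Counted as 2 samples, castle building gave these 4 as calls. That setting called more of all genes as well, as given below, so it does not single out these 4. Exact intervals excluded 50% for 8 of the 45 factors, or 17.8%, against 16.3% of all genes; they cover counting error only.

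Differences in allelic ratio that involve castle building passed for no factor. For pit digging minus castle building, 0 of 45 factors passed with edgeR or DESeq2 (0.161% of all genes with edgeR, 0.0584% higher in pit digging), and 3 had an unadjusted p under 0.05 (6.67%, against 9.15%). These were tcf12 (-1.04 ± 0.38, edgeR adjusted p = 0.461), pou2f1 (0.82 ± 0.30, adjusted p = 0.466) and sox5 (0.86 ± 0.32, adjusted p = 0.468), and further down meis2 (0.97 ± 0.46) and foxp4 (0.75 ± 0.36). For castle building minus isolation, 0 of 45 passed with either tool (0.263% of all genes with edgeR), and 2 had an unadjusted p under 0.05 (4.44%, against 8.50%): sox5 (-0.83 ± 0.33, edgeR adjusted p = 0.546) and bcl11a (0.69 ± 0.29, adjusted p = 0.584). After them came nfix (-0.94 ± 0.44), the cell-cycle exit factor e2f4 (-0.63 ± 0.35), the eye and forebrain factor pax6 (-0.77 ± 0.44) and nr1h3 (-0.55 ± 0.32). Both comparisons share the castle building sample.

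The third question was whether the amount of a factor, as the sum of both alleles, differed between pit digging and isolation. Sums are given as CPM scaled by TMM; they count only reads over informative sites and are not divided by gene length, so levels of different genes are not compared. No factor and no gene passed (edgeR; 0% of 8254), and DESeq2 called 156 genes, no factor among them. An unadjusted p under 0.05 was reached by 4 factors (6.90%, against 10.0% of all genes). Pit digging lay below isolation without overlap for 17 of the 59 genes (28.8%, against 22.5% of all genes) and above it for 10 (16.9%, against 20.8%). Replicates of a factor differed by a median of 1.37-fold within pit digging and 1.29-fold within isolation, against 1.30 and 1.24 over all genes.

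For foxp2, a forkhead factor of striatal and vocal circuits in mammals and birds, the sum was 6.65 and 9.58 CPM in pit digging, 27.4 and 19.1 CPM in isolation and 18.4 CPM in castle building. Both pit digging libraries were under 10 CPM and every other sample was above 18. The difference was -1.51 ± 0.40 on the log2 scale (SE, n = 2 against 2; edgeR adjusted p = 0.349). For dlx5, a homeodomain factor of GABAergic forebrain neurons, the sum was 10.5 and 27.2 CPM against 56.3 and 49.0 CPM (difference -1.48 ± 0.55, edgeR adjusted p = 0.484). For neurod6, a bHLH factor of pallial glutamatergic neurons, it was 13.0 and 6.92 CPM against 16.8 and 49.5 CPM (difference -1.71 ± 0.68, edgeR adjusted p = 0.508). In both, the groups did not overlap, and the isolated replicates of neurod6 differed more from each other than its lower one did from pit digging. The anterior forebrain factor six3 was at 17.2 and 20.2 CPM against 32.6 and 33.8 CPM, with castle building at 19.9 CPM (-0.82 ± 0.32, edgeR adjusted p = 0.508). These 4 genes rest on 13 to 107 counts per library, and the pit digging libraries held no more than 51 of any of them.

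Of the genes that only share a prefix, foxred1 was at 8.05 and 7.99 CPM in pit digging against 37.9 and 15.2 CPM in isolation (-1.71 ± 0.55, edgeR adjusted p = 0.431). Of the MEF2 genes, mef2a was at 50.1 and 86.3 CPM against 192 and 93.5 CPM (-1.06 ± 0.49, edgeR adjusted p = 0.557), and mef2d at 88.9 and 157 CPM against 71.0 and 57.3 CPM (0.95 ± 0.37, edgeR adjusted p = 0.503). Neither overlapped between the groups, and mef2a lay lower and mef2d higher in pit digging. The coregulator tcf20 was at 186 and 189 CPM against 132 and 109 CPM (0.65 ± 0.22, edgeR adjusted p = 0.452), with replicates of pit digging nearly equal. Of the 59 genes, tcf7l2 had the smallest spread over the 4 libraries, at 352 and 399 CPM against 388 and 386 CPM. Of 7 vascular and meningeal markers, kdr and flt1 were listed in every library and summed to 26.7 to 48.7 CPM, without TMM as in all marker sums. With the genes of that list that not all libraries list, pit digging replicate 1 came to 456 CPM against 26.7 to 76.1 CPM elsewhere, and pituitary hormone genes were listed in pit digging replicate 2 (731 CPM) and isolated replicate 2 (1253 CPM) alone. Their part in these sums was not tested.

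**Figure D3:**
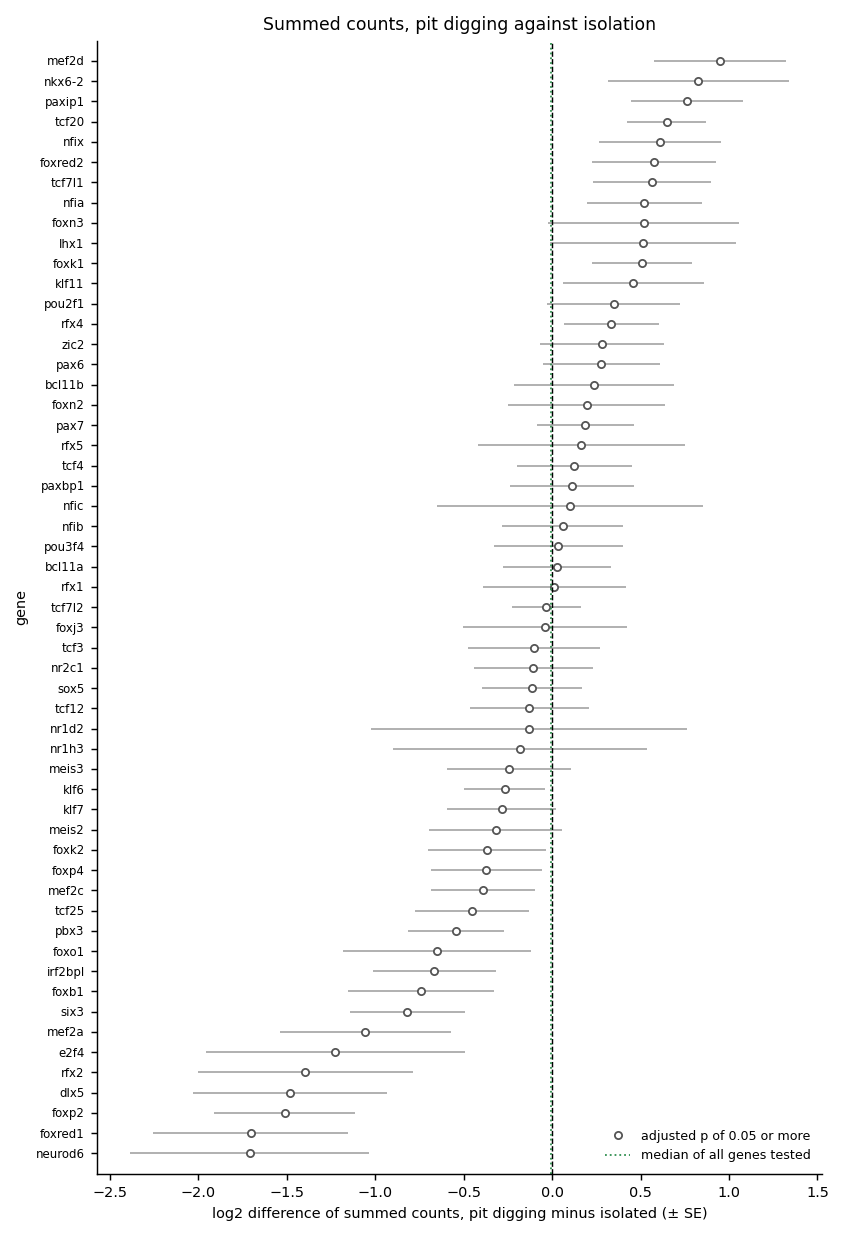
Difference in summed allele counts between pit digging and isolation, on the log2 scale (x axis, ± SE), for 55 of the 58 tested genes (y axis, ordered by value); open points mark an edgeR adjusted p of 0.05 or more. Every point is open; neurod6, foxred1, foxp2 and dlx5 lie at or below -1.48, and mef2d is at 0.95.

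The same sums were compared between castle building and each of the other groups. The CPM of castle building was above all 4 other libraries for 23 of 45 factors, or 51.1%, against 32.0% of all genes, and below them for 9 (foxk1, klf6, nfia, pax6, pbx3, rfx1, tcf12, tcf3 and tcf7l2), or 20% of them, against 33.4%. Only genes listed in both castle building libraries enter, at a total of at least 21 there, so genes low in castle building drop out. This left out 14 of the 59 factors, and of all 8304 genes it kept 6848. In pit digging and isolation the factors had lower totals than all genes (median of mean totals 103.5 against 136.5). The part of this filter in these counts and in the medians below was not tested. Against pit digging, 2 of 45 factors passed (4.44%; 4.69% of all genes, 3.27% higher and 1.42% lower in pit digging), and both were lower in pit digging. Against isolation, 3 of 45 passed (6.67%; 6.72% of all genes, 2.44% higher and 4.28% lower in castle building), 2 higher and 1 lower in castle building. An unadjusted p under 0.05 was reached by 13 and 15 factors (28.9% and 33.3%, against 29.9% and 30.5% of all genes). The median log2 difference of the factors was -0.46 for pit digging minus castle building, where that of all genes was 0.05, and 0.31 for castle building minus isolation, where it was -0.05. At a mean total of at least 100 counts, which 28 of the factors reached, these medians were -0.30 and 0.16, and from the C. virginalis allele alone the second was 0.09. Without pit digging replicate 1 the median of all genes for pit digging minus castle building was -0.04. Both comparisons share the castle building sample.

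The activity-regulated factor mef2d was at 818 CPM in castle building, 88.9 and 157 CPM in pit digging and 71.0 and 57.3 CPM in isolation. Castle building was above every other library by several fold. The difference was -2.74 ± 0.41 for pit digging minus castle building (edgeR adjusted p = 0.0454) and 3.67 ± 0.42 for castle building minus isolation (edgeR adjusted p = 0.0359). The E-protein tcf4 was at 831 CPM in castle building against 112 and 188 CPM in pit digging and 140 and 138 CPM in isolation. The differences were -2.47 ± 0.37 (edgeR adjusted p = 0.0445) and 2.58 ± 0.37 (edgeR adjusted p = 0.0409). The Wnt factor tcf7l2 went the other way, at 132 CPM in castle building against 352 and 399 CPM and 388 and 386 CPM. It fell in castle building against isolation (-1.55 ± 0.26, edgeR adjusted p = 0.0474), and the value against pit digging was 1.51 ± 0.26 (edgeR adjusted p = 0.0533). Its allele share in castle building, 65.4%, was read from 272 counts.

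Counts of the M. conophoros allele alone did not carry the calls of tcf4 (edgeR adjusted p = 0.0601 against pit digging and 0.0519 against isolation), and tcf7l2 against isolation was lost from either allele alone (0.0547 and 0.0673). With a pit digging or isolated library left out, the fit had 1 residual degree of freedom and called 0 of all genes, so it does not bear on single genes. The values of mef2d then ran from -3.22 to -2.40 for pit digging minus castle building and from 3.52 to 3.83 for castle building minus isolation. Those of tcf4 ran from -2.91 to -2.16 and from 2.57 to 2.59, and tcf7l2 stayed between -1.55 and -1.54 for castle building minus isolation. Calls of this kind rest on 1 sample whose spread was borrowed. The myelin markers mbp and mpz together summed to 829 and 831 CPM in its libraries, against 4816 to 5696 CPM in the others. The astroglial sum was 4977 and 4987 CPM against 2171 to 4206 CPM, and that of csf1r and cd74 79.4 and 80.0 CPM against 134 to 222 CPM. The part of these cell types in the levels of the factors was not tested. Others with low p were foxk2, a forkhead factor, at 89.3 CPM in castle building against 22.1 to 33.1 CPM in the others, klf7, a KLF regulator of axon growth, at 202 CPM against 62.7 to 103 CPM, and klf6, its relative, at 94.7 CPM against 189 to 268 CPM; none passed with edgeR. DESeq2 called foxk2 and tcf7l2 against pit digging as well.

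**Figure D4:**
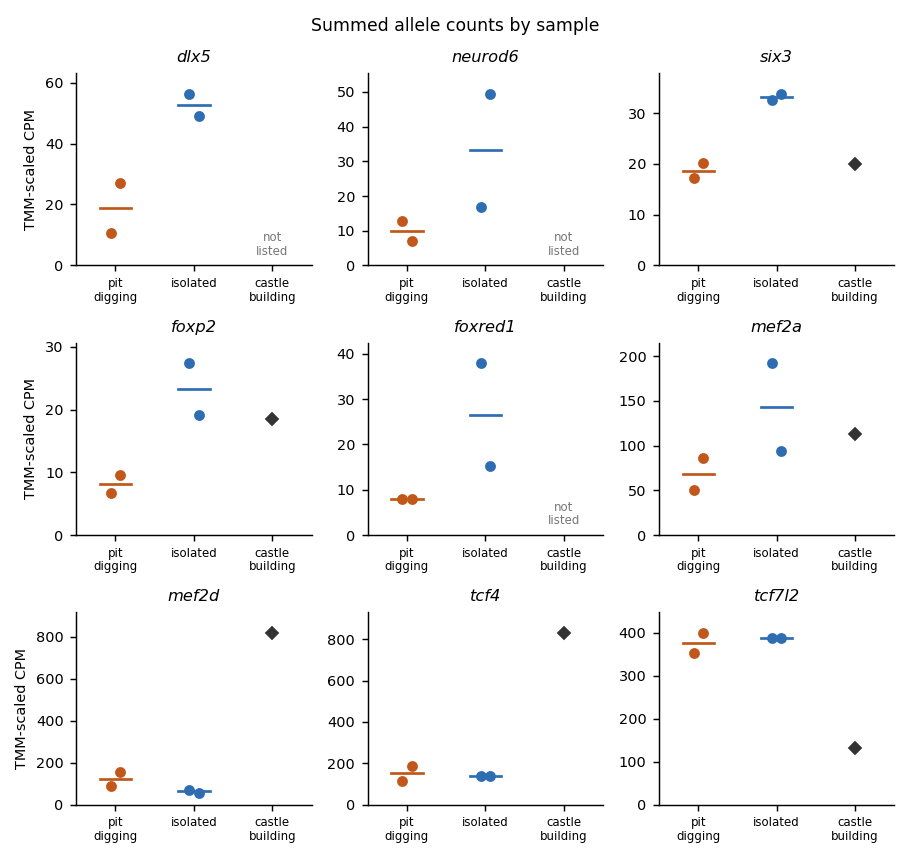
Summed allele counts in TMM-scaled CPM (y axis, from 0) for 9 genes by group (x axis): points are libraries, the diamond is the mean of the castle building libraries and horizontal lines are means of 2 libraries. Castle building was above 800 CPM for mef2d and tcf4, and dlx5, neurod6, six3 and foxp2 were lower in both pit digging libraries than in both isolated ones.

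**Figure D5:**
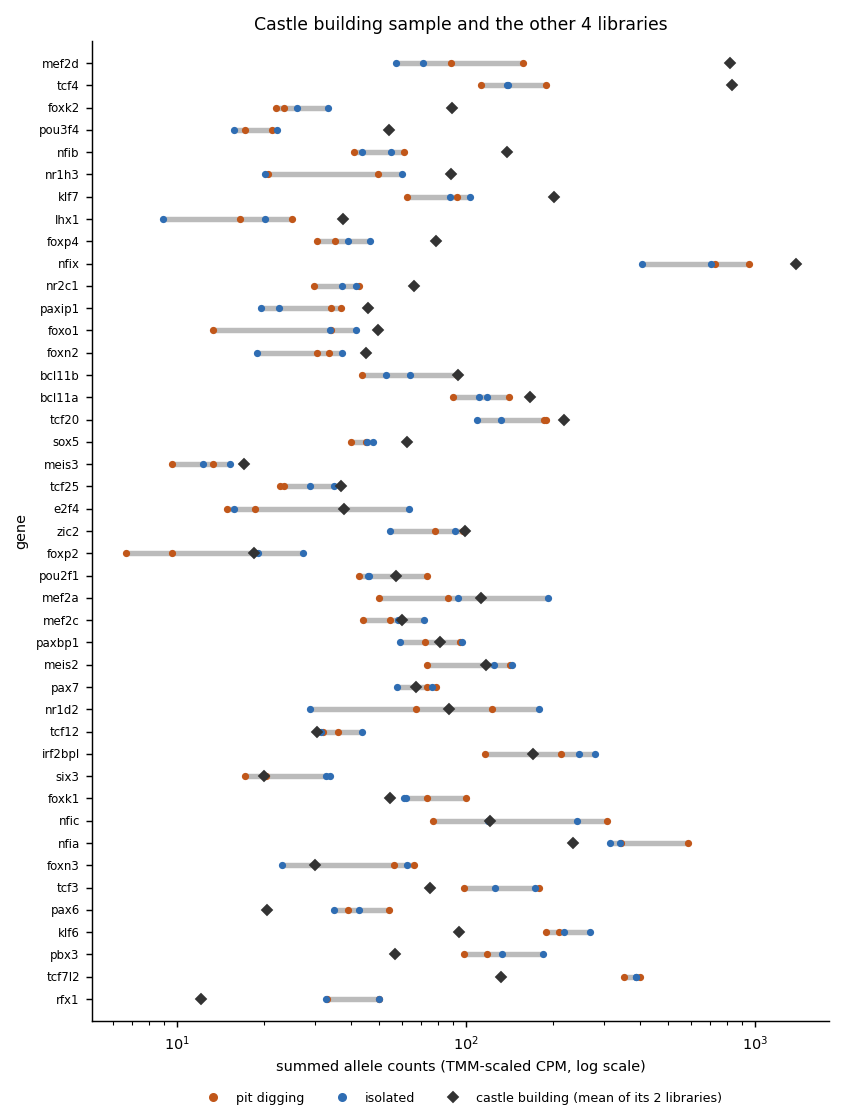
Summed allele counts in TMM-scaled CPM (x axis, log scale) for 43 of the 45 genes listed in castle building (y axis): grey bars span the 4 other libraries, points are libraries and diamonds the castle building sample. The diamond lies right of the bar for 21 of the genes drawn and left of it for 9.

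The other genes of these pathways were read from 3 lists in the same fits: co-regulators and partners of these factors (52 genes, 26 tested), nuclear receptors under other symbols (24 genes, 6 tested) and other brain transcription factors (111 genes, 38 tested). In the allelic test over pit digging and isolation, 2 co-regulators passed with C. virginalis higher: id2, an inhibitor that binds E-proteins such as tcf4 and tcf12, and lmo4, a LIM-only adaptor. The C. virginalis share of id2 was 91.2% and 87.0% in pit digging and 87.9% and 88.6% in isolation, with a log2 ratio of 3.01 ± 0.13 (edgeR adjusted p = 9.70e-06). In castle building its share was 45.2%, at 20.4 CPM against 103 to 167 CPM in the other libraries. For lmo4 the shares were 63.4% and 62.5% in pit digging, 67.2% and 58.9% in isolation and 25% in castle building. None of the 22 co-regulators tested passed in the allelic differences that involve castle building. No nuclear receptor of the second list passed, and 3 of the third list did, all with C. virginalis higher: cux1, barhl1 and the activity-regulated egr1, at 0.68 ± 0.10, 0.64 ± 0.10 and 0.71 ± 0.15. The share of egr1 was 66.0% and 63.4% in pit digging and 67.0% and 49.4% in isolation. In the sums, no gene of the lists passed between pit digging and isolation. In castle building lmo4 was at 27.2 CPM against 238 to 440 CPM and pbxip1, a PBX-binding protein, at 15.0 CPM against 97.7 to 180 CPM. The log2 differences for pit digging minus castle building were 3.22 ± 0.35 and 2.90 ± 0.43, and those for castle building minus isolation -3.84 ± 0.36 and -3.37 ± 0.44 (edgeR adjusted p 0.0359 to 0.0440). The zinc-finger factor gata3, at 13.6 CPM in castle building against 66.6 to 80.2 CPM, passed in both comparisons as well. The neuronal factor myt1, at 651 CPM against 143 and 161 CPM in isolation and 442 and 384 CPM in pit digging, passed against isolation.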

How the data were processed

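For each of 6 whole-brain libraries the authors deposited whole-number counts of reads per gene for the C. virginalis and the M. conophoros allele, without normalization, beside a log2 ratio of both counts. STAR 2.4 was used, per the submitters' processing notes. The sources used here name no genome build, annotation, informative sites, allele counter or strand. Reads shared by gene copies could be split between them.

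The tables list genes with at least 6 counts on each allele, and those of castle building a total of at least 21. Missing genes were not set to 0. For allelic ratios, edgeR 4.0.16 (R 4.3.3; glmQLFit and glmQLFTest) was run with 1 intercept per library and 1 allele coefficient per group, both alleles sharing the library size of their sum. For amounts, both alleles were summed, scaled by TMM and fitted with group as the factor. Pit digging and isolation used the 4 libraries and 8254 genes. Comparisons with castle building used 5 samples and 6844 genes, castle building being the rounded mean of its libraries. Genes needed a mean total of at least 20. Every fit had 2 residual degrees of freedom, and its biological coefficient of variation was 10.8% for allelic ratios and 34.1% to 34.6% for sums. Adjustment of p was by Benjamini-Hochberg over all genes tested (threshold 0.05), and the SE is the log2 value divided by the square root of F. Positive allelic values mean more C. virginalis counts. CPM use the TMM factors of the 5-sample fit. Shares of the castle building sample carry exact 95% Clopper-Pearson intervals for counting error alone.

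The members and lists were chosen with earlier results of these data known. The genes named were those past the threshold, otherwise the 6 with the smallest p in a comparison, and up to 3 per family by level. Other genes are named from the fixed lists, for a count of 5 or fewer, or after their values were seen. The alternatives tried were DESeq2 1.42.0, other scalings and filters, single alleles, a replicate block, castle building handled in other ways and the omission of single libraries. Simulated data with known changes served as a check of the fits. Some members entered every fit and count but are not reported here by name or drawn.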

Additional observations from a re-analysis of the deposited data

How the results depend on the processing

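Direction was checked for the genes past the threshold in a comparison and, where fewer than 6 passed, for its 6 smallest p. None of those values reversed direction under an alternative. Other genes named here were not checked for it. With TMM factors per allele column the median log2 ratio of the factors went from 0.04 to -0.05 over pit digging and isolation and from 0.02 to -0.04 in castle building. For the genes and comparisons checked, 466 values from the alternatives kept their side of the threshold, 48 lost the call and 17 gained it. DESeq2 gave 424 genes and 3 factors for the allelic ratio over pit digging and isolation, 6 genes for its difference between them, 62 genes in castle building, 156 genes for sums between pit digging and isolation, 854 genes and 5 factors for sums between pit digging and castle building, and 933 genes for sums between castle building and isolation. With castle building as 2 samples, 6847 genes were tested, 45 factors among them. The allelic ratio in castle building then gave 619 genes and 4 factors, and its differences from pit digging and isolation gave 273 and 209 genes. The sums gave 2648 genes and 18 factors against pit digging and 2734 genes and 17 factors against isolation. For the allelic difference between pit digging and castle building, TMM factors per allele column gave 20 genes and castle building replicate 2 alone gave 17. A mean total of at least 100 gave 8 genes for the allelic difference between castle building and isolation. For sums between pit digging and castle building, that filter put tcf7l2 among the calls. Sums from the M. conophoros allele alone still called mef2d in each comparison with castle building. The mean of all 3 groups, an alternative chosen after seeing the data, kept nfia, nfix, tcf7l2 and zic2. It also called sox5, with C. virginalis lower. The cause of these shifts was not tested.

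With each library left out in turn, the allelic ratio over pit digging and isolation gave 366 to 648 genes and 2 to 3 factors, its difference between them 0 to 2 genes, castle building 48 to 151, pit digging minus castle building 7 to 43, and castle building minus isolation 4 to 32. Each of these fits had 1 residual degree of freedom. For sums against castle building no gene was called, so those fits do not bear on single genes.

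Over all genes, same-numbered libraries of pit digging and isolation did not deviate together (correlation of deviations -0.02 for allelic ratios and -0.09 for sums). Pituitary hormone genes, however, were listed in replicate 2 of both groups alone. Whether same-numbered libraries share a batch or a dissection was not tested. With the replicate block the allelic ratio gave 394 genes and 2 factors (tcf7l2 and zic2), its difference 5 genes, and the sums 0 genes.

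A median of 94.0 to 163 counts per factor and library limits single shares: counting alone gives a standard deviation of about 5 percentage points.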

Other observations

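Of the 37 matching genes that were not listed in all 4 pit digging and isolated libraries, 13 were listed in 3 of them, 12 in 2, 11 in 1 and 1 in none. The counts of a gene where it is not listed are unknown, so these genes carry no comparison. The 1 listed in none was zic1, a dorsal neural tube and cerebellar factor, with 89 counts in each castle building library. The pituitary factor pou1f1 was listed with 13 counts in pit digging replicate 2 and 85 in isolated replicate 2, the libraries in which pituitary hormone genes were listed, at 731 and 1253 CPM. The oligodendrocyte factor nkx6-2 had 111, 42, 44 and 24 counts in the pit digging and isolated libraries, in that order, and was listed in castle building replicate 1 alone, with a C. virginalis share of 52.4%.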
